A study of Mus musculus with 21 samples.

Results

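Matrix metalloproteinases are zinc-dependent endopeptidases that cleave the proteins of the extracellular matrix. They are made as inactive precursors, are opened by plasmin, by proprotein convertases or by one another, and are held in check by tissue inhibitors (TIMPs). In the liver they are known for the turnover of the collagen that stellate cells lay down during scarring, and macrophages, neutrophils, stellate cells and duct epithelium are among their known sources. Their transcripts are described here for 10 genes of the family: Mmp2, Mmp7, Mmp8, Mmp9, Mmp12, Mmp13, Mmp14, Mmp15, Mmp19 and Mmp23. The members were taken by symbol, through the Ensembl IDs of the GRCm38 annotation, from a raw count table of 52636 gene IDs. All 10 had enough counts to be tested, among 17104 genes tested. The family has 23 genes in the table, of which 13 are not among the members.

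The livers came from wild-type mice in 3 groups, and RNA counts were read from stranded total RNA libraries. The 5 control livers were collected from mice kept on normal chow for 8 weeks, which the labels nevertheless call week 0. The other groups were fed CDA-HFD, the choline-deficient, amino acid-defined, high-fat diet used to raise steatohepatitis and fibrosis in mice, for 8 weeks (8 livers) or for 16 weeks (8 livers). No transgene, drug or deletion was named. Neither sex nor age is given in the sources used, and the effect of age and that of a longer diet cannot be told apart, since no chow livers stood beside the 16-week group. The titles give every liver a number of its own, and nothing links livers across groups, so p-values measure the spread between these livers.

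Libraries held 33522456 to 42586342 counts in the chow group, 29037525 to 45868842 in the 8-week group and 35254088 to 48901145 in the 16-week group. Levels are CPM, counts scaled to a common library size after adjustment by trimmed means of M-values (TMM). The hepatocyte markers were abundant in all groups, with a summed level of at least 73510 CPM in every liver. The library of 8-week replicate 3 stood apart. Its TMM factor was 0.496 (0.81 to 1.30 in the others), its mitochondrial share was 0.25% of counts (2.22% to 3.18% in the other CDA-HFD livers), and it held 2004 CPM of squamous epithelium markers and 2984 CPM of skeletal muscle markers. On chow the summed squamous markers did not exceed 0.86 CPM. Replicate 4 of the 8-week group held 7356 CPM of pancreatic acinar markers. Replicate 5 of that group held 321.5 CPM of them, and replicate 6 held 300 CPM of squamous and 342.5 CPM of muscle markers. In the 16-week group, replicates 1, 4 and 7 held 271.9, 81.05 and 163.1 CPM of squamous markers. These livers held 410.3, 392.3 and 234.2 CPM of muscle markers. Chow replicate 5 held 394.5 CPM of skeletal muscle markers, and it was the highest chow liver for Mmp8, Mmp9, Mmp12 and Mmp13. The calls of the members are also given without 8-week replicate 3.

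Of the 10 members, 4 lie in a single cluster of family genes on chromosome 9 (GRCm38, chr9:7272514-7699585, 427.1 kb): Mmp13 first, then Mmp12, Mmp8 and Mmp7, all on the plus strand. All 4 rose on the diet, so the bases before their annotated starts are shown (RefSeq, GRCm38.p6, plus strand, 5′ to 3′). Capitals mark TGAGTCA or its reverse complement TGACTCA, the binding letters of the AP-1 factors, and TATAAA, the TATA box. Mmp12 has a pair of annotated starts, the later one inside the gene. Bases in annotated exons were left out before its first start, so that stretch ends at 7344380, short of the RefSeq start at 7344397. Mmp7 and Mmp23 have a pair of starts as well, and for Mmp7 only the first is shown.

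Mmp13 (chr9:7272404-7272513): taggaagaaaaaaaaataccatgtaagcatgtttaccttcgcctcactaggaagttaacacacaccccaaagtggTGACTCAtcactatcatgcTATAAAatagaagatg
Mmp7 (chr9:7691980-7692089): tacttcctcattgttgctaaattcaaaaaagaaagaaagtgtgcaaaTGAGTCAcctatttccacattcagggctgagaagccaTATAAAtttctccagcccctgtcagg
Mmp12, first start (chr9:7344287-7344380): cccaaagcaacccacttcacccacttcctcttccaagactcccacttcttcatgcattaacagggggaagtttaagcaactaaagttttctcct
Mmp12, later start (chr9:7347264-7347373): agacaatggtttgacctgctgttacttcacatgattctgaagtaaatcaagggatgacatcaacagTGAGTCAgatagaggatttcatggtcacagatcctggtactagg
Mmp8 (chr9:7558319-7558428): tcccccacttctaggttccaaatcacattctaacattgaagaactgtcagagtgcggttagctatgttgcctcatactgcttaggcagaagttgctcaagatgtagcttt

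Both strands of the 250 bases before each start were searched, and no match of one motif overlapped a match of another. Promoter windows were available for 7 members. Mmp2, Mmp9 and Mmp19 had none and were not searched. TGAGTCA was found before Mmp13, beginning 35 bases from the start on the minus strand, before the first start of Mmp7 at 63 bases, and before the later Mmp12 start at 44 bases. TATAAA was found before Mmp13 at 16 bases and before the first start of Mmp7 at 26 and 123 bases. Neither was found before the first Mmp12 start or the later Mmp7 start, nor before Mmp8, Mmp14, Mmp15 or Mmp23. Among 32851 promoter windows of this length, 4.46% held TGAGTCA and 12.4% held TATAAA. The core letters read by ETS factors, AGGAAG, stood before Mmp13, Mmp7, Mmp8, Mmp12 and Mmp14, and 29.5% of all windows held it. The matches are letters in a window, and binding was not measured.

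After 8 weeks of CDA-HFD, 8 of the 10 members had risen and none had fallen (edgeR quasi-likelihood test, Benjamini-Hochberg adjusted p under 0.05 over all genes tested). The exceptions were Mmp15 and Mmp19. Of all genes tested, 51.3% were called in this comparison, 30.8% as higher. The members' median log2 change was 2.31, beside 0.16 for all genes. In 5 of the 10 the livers of the groups did not overlap in CPM, as for 30.1% of all genes. After 16 weeks, 7 members had risen and Mmp19 had fallen, with 51.9% of all genes called (29.4% higher, 22.5% lower). The median was 2.39, beside 0.03 for all genes, and in 8 members the groups did not overlap (50.5% of all genes). From 8 to 16 weeks, Mmp2, Mmp7, Mmp12 and Mmp14 rose, Mmp19 fell, and 5 members were not called. Of all genes, 21.6% were called in that comparison. Its median was 0.06 for the members and 0.00 for all genes, and no member had groups without overlap (3.09% of all genes). With 8-week replicate 3 left out, the livers of these times did not overlap for Mmp2, Mmp7 and Mmp14 (4.4% of all genes), and 5 members remained without overlap at 8 weeks against chow (35.8% of all genes). Without 8-week replicate 3, 9, 10 and 7 members were called in the 3 comparisons, while the share of all genes called was 57.2%, 66.4% and 27.3%: Mmp19 was added as lower at 8 weeks, Mmp9 and Mmp15 as higher at 16 weeks, and Mmp15 and Mmp23 as higher at 16 than at 8 weeks. The comparisons with chow share the same 5 control livers.

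**Figure D1:**
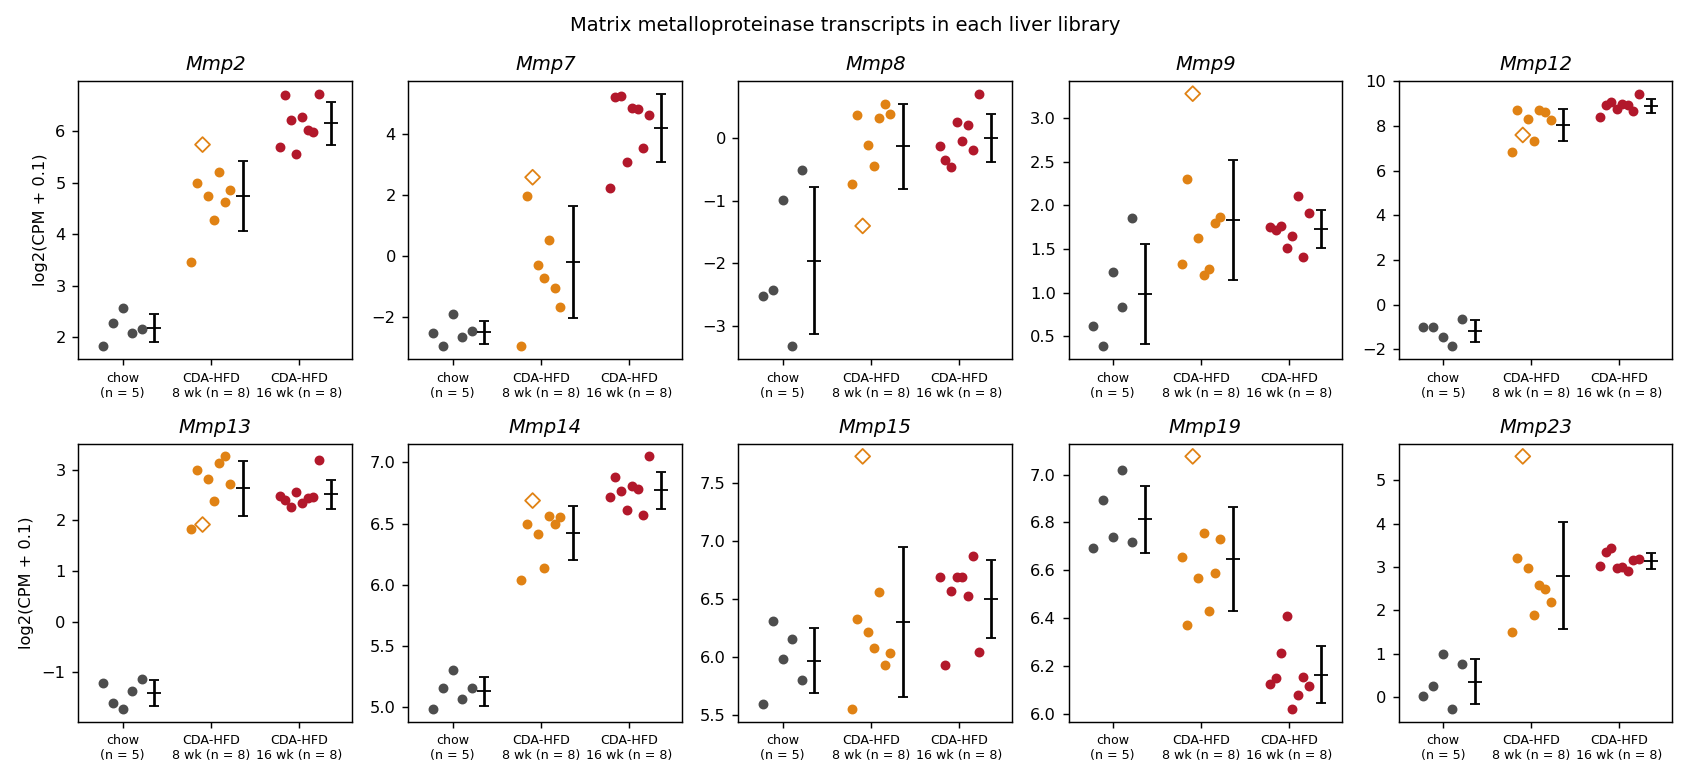
Level of each member in each liver, as log2(CPM + 0.1), by group, with 1 point a liver, black bars for mean ± SD and diamonds for 8-week replicate 3. The 16 CDA-HFD livers sit above the chow livers for Mmp2, Mmp12, Mmp13, Mmp14 and Mmp23, while Mmp19 is lower at 16 weeks and Mmp15 overlaps between groups.

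Mmp12 (ENSMUSG00000049723, chr9:7344381-7369499), the macrophage elastase, showed the largest change of the members against chow. On chow its level was 0.405, 0.402, 0.27, 0.174 and 0.548 CPM in replicates 1 to 5. At 8 weeks it ran from 114.1 CPM through a median of 314.4 to 425.3 CPM, and at 16 weeks from 334.6 through 496.6 to 698.5 CPM. Every CDA-HFD liver thus lay far above every chow liver, while the CDA-HFD groups overlapped. The log2 change was 9.65 (SE 0.45, adjusted p = 1.62e-11) at 8 weeks and 10.39 (SE 0.46, adjusted p = 3.04e-12) at 16 weeks. The chow mean rests on 59 counts pooled over 5 libraries, beside 84580 at 8 weeks. From 8 to 16 weeks it rose by 0.75 (SE 0.24, adjusted p = 0.0335), a call that was lost when any 1 of 5 libraries was left out (8-week replicate 5, 16-week replicates 2, 5, 6 and 8), with adjusted p = 0.0781 without 16-week replicate 8, and over all alternatives it ran from 0.0131 to 0.128, the last without 8-week replicates 3, 4 and 5.

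All 10 macrophage markers, among them Adgre1, Cd68, Csf1r and Trem2, rose at both times (30.8% and 29.4% of all genes did). Their summed level was 217.6 to 302.7 CPM on chow, 963.6 to 6594 CPM at 8 weeks (at most 3240 CPM without replicate 3) and 2562 to 4676 CPM at 16 weeks. Per 100 CPM of these markers, Mmp12 stood at 0.0748 to 0.184 CPM on chow, at 2.94 to 15.5 at 8 weeks and at 12.6 to 14.9 at 16 weeks, so the ratio did not overlap between chow and diet. The lowest 8-week ratio was that of replicate 3. Without it the range was 10.98 to 15.47. In such bulk samples, fewer cells of a type and less RNA per cell cannot be told apart, and the part of cell numbers in any of these changes was not tested.

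Mmp13 and Mmp8 are collagenases, which cut the triple helix of fibrillar collagen. Mmp13 (ENSMUSG00000050578, chr9:7272514-7283331), the main interstitial collagenase of rodents, stood at 0.331, 0.23, 0.202, 0.29 and 0.356 CPM on chow. At 8 weeks its level ran from 3.48 through a median of 6.77 to 9.53 CPM, and at 16 weeks from 4.69 through 5.39 to 9.04 CPM. Both diet groups lay wholly above chow and covered much the same range. The log2 change was 4.51 (SE 0.30, adjusted p = 8.43e-10) at 8 weeks and 4.33 (SE 0.29, adjusted p = 6.23e-10) at 16 weeks, and the difference between the times was -0.18 (SE 0.20, adjusted p = 0.54). In contrast to most members, 8-week replicate 3 was among the lowest of its group, at 3.69 CPM.

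Mmp8 (ENSMUSG00000005800, chr9:7558456-7568485), the collagenase stored by neutrophils, was scarce on chow, at 0.0735, 0.086, 0.405, 0 and 0.603 CPM, or 39 counts in all. It ran from 0.278 through 0.981 to 1.35 CPM at 8 weeks and from 0.627 through 0.841 to 1.53 CPM at 16 weeks. The 16-week livers lay above all chow livers, and the 8-week livers overlapped with chow. It rose by 1.93 (SE 0.55, adjusted p = 0.0067) at 8 weeks and by 1.97 (SE 0.55, adjusted p = 0.00464) at 16 weeks on the log2 scale. Without chow replicate 5 these were 2.68 (adjusted p = 0.00109) and 2.73 (adjusted p = 0.000646). The difference between the times was 0.04 (SE 0.42, adjusted p = 0.957), a value whose sign turned when single libraries were left out.

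Mmp2 and Mmp9 are the gelatinases, which digest denatured collagen and basement membrane. Mmp2 (ENSMUSG00000031740, chr8:92827291-92853420), known as a product of stellate cells and fibroblasts, stood at 3.42, 4.70, 5.80, 4.14 and 4.33 CPM on chow. At 8 weeks it ran from 10.9 through 27.8 to 53.5 CPM and at 16 weeks from 47.3 through 70.0 to 106.4 CPM. All diet livers exceeded chow, and among the 8-week livers only replicate 3 reached into the 16-week range. The log2 change grew from 2.70 (SE 0.31, adjusted p = 6.56e-07) at 8 weeks to 4.04 (SE 0.33, adjusted p = 4.31e-09) at 16 weeks. The rise between the times, 1.35 (SE 0.24, adjusted p = 0.000791), was called in every alternative.

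Mmp9 (ENSMUSG00000017737, chr2:164940780-164955850), which neutrophils carry in their granules, changed least among the members that were called at 8 weeks. Its chow levels were 1.43, 1.21, 2.26, 1.68 and 3.51 CPM. It ran from 2.20 through 3.19 to 9.60 CPM at 8 weeks and from 2.54 through 3.23 to 4.22 CPM at 16 weeks. Chow replicate 5 lay above the median of both diet groups, and the highest 8-week value was that of replicate 3. The log2 change was 0.93 (SE 0.33, adjusted p = 0.0219) at 8 weeks and 0.68 (SE 0.32, adjusted p = 0.0813) at 16 weeks. The call at 8 weeks was lost without chow replicate 1, 2 or 4 (adjusted p = 0.0597, 0.0653 and 0.0543) and when 16-week livers were kept out of the fit (adjusted p = 0.0916), within a range of 0.00598 to 0.0916 over all alternatives. Without 8-week replicate 3 the change at 8 weeks was 0.60 (adjusted p = 0.0368). At 16 weeks the change was called without chow replicate 5 (0.98, adjusted p = 0.0186) and without 8-week replicate 3 (0.68, adjusted p = 0.0147).

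Of 11 neutrophil markers, 10 were tested, and 8 rose at 8 weeks and 6 at 16 weeks (30.8% and 29.4% of all genes). Their summed level was 4.23 to 25.9 CPM on chow, 19.0 to 145.4 CPM at 8 weeks (at most 49.7 CPM without replicate 3) and 23.9 to 47.3 CPM at 16 weeks. Per 100 CPM of these markers, Mmp9 stood at 13.5 to 39.7 CPM on chow, at 6.60 to 12.7 at 8 weeks and at 7.36 to 10.7 at 16 weeks, so the ratio was lower on the diet without overlap. For Mmp8 the median ratio was 2 on chow, 2.66 at 8 weeks and 2.64 at 16 weeks, with overlapping ranges. The part of neutrophil numbers in either change was not tested.

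Mmp7 (ENSMUSG00000018623, chr9:7692090-7699585) encodes matrilysin, a small protease of glandular and duct epithelium. On chow it was barely present, at 0.0735, 0.0287, 0.169, 0.0579 and 0.0822 CPM, or 13 counts in all. At 8 weeks the livers spread from 0.0295 through a median of 0.613 to 5.91 CPM, and at 16 weeks from 4.64 through 26.6 to 38.4 CPM. Replicate 1 of the 8-week group was still at the chow level, and replicate 3 was its highest. All 16-week livers were above chow and their lowest value lay below the highest at 8 weeks. The lowest 16-week livers were replicates 1, 4 and 7 (4.64, 8.32 and 11.5 CPM), which also held squamous and muscle markers. The log2 change was 4.18 (SE 1.08, adjusted p = 0.00325) at 8 weeks, or 3.57 (adjusted p = 0.00754) without replicate 3. At 16 weeks it was 8.09 (SE 1.13, adjusted p = 3.96e-06). The rise from 8 to 16 weeks, 3.92 (SE 0.68, adjusted p = 0.000624), was the largest among the members, and it was 4.53 without replicate 3.

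The biliary markers followed a similar course in time. Of 10, 6 rose at 8 weeks, all 10 rose at 16 weeks, and 8 rose from 8 to 16 weeks (30.8%, 29.4% and 10.6% of all genes). Their summed level was 39.9 to 47.7 CPM on chow, 47.5 to 109.2 CPM at 8 weeks (at most 76.9 CPM without replicate 3) and 95.1 to 226.7 CPM at 16 weeks. Per 100 CPM of these markers, Mmp7 stood at a median of 0.157 CPM on chow, 1.22 at 8 weeks and 15.9 at 16 weeks. The chow and 16-week ratios did not overlap (0.0601 to 0.361 against 4.76 to 22.7). The part of duct cell numbers in the rise of Mmp7 was not tested.

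Mmp14 and Mmp15 are membrane-type enzymes held at the cell surface. Mmp14 (ENSMUSG00000000957, chr14:54431612-54445364), which activates the Mmp2 precursor with Timp2 as its partner, was tightly grouped. It stood at 31.6, 35.5, 39.3, 33.4 and 35.7 CPM on chow, ran from 65.7 through 90.2 to 103.0 CPM at 8 weeks and from 94.8 through 109.4 to 132.3 CPM at 16 weeks. Neither diet group reached down to chow. Its log2 change was 1.30 (SE 0.12, adjusted p = 3.35e-08) at 8 weeks and 1.64 (SE 0.12, adjusted p = 1.1e-09) at 16 weeks. The step between the times was 0.34 (SE 0.10, adjusted p = 0.0192).

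The summed stellate cell markers were 249.1 to 398.1 CPM on chow, 450.2 to 1194 CPM at 8 weeks (at most 987 CPM without replicate 3) and 921.6 to 1215 CPM at 16 weeks. Of the 10 markers, 8 were called higher at 8 weeks and 7 at 16 weeks (30.8% and 29.4% of all genes). Set against 100 CPM of these markers, Mmp14 did not separate the groups: its ratio was 8.96 to 13.4 CPM on chow, 8.63 to 14.6 at 8 weeks and 8.85 to 12.5 at 16 weeks. Mmp2 did separate them, at 1.09 to 1.66 CPM on chow, 2.42 to 4.48 at 8 weeks and 5.01 to 10.3 at 16 weeks. Mmp13 moved up from 0.0564 to 0.116 CPM on chow to 0.309 to 1.23 at 8 weeks (0.773 to 1.23 without replicate 3) and 0.413 to 0.854 at 16 weeks. The part of stellate cell numbers was not tested.

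Mmp15 (ENSMUSG00000031790, chr8:95352268-95375080) did not pass the test in any comparison in the fit of all livers with TMM scaling. Its chow levels were 48.2, 79.3, 63.2, 71.2 and 55.5 CPM. It ran from 46.7 through 70.6 to 212.4 CPM at 8 weeks and from 60.8 through 99.1 to 117.1 CPM at 16 weeks. The 212.4 CPM were those of 8-week replicate 3, and the next liver of that group stood at 94.3 CPM. The log2 changes were 0.46 (SE 0.28, adjusted p = 0.165) and 0.54 (SE 0.28, adjusted p = 0.109). Without replicate 3 the change at 16 weeks was 0.54 (adjusted p = 0.00861) and that from 8 to 16 weeks was 0.41 (adjusted p = 0.0486), beside 0.08 (adjusted p = 0.838) with all livers. A fit of only the chow and 16-week livers also called it (0.53, adjusted p = 0.00954), as did scaling by total counts alone (1.06, adjusted p = 0.000178, at 16 weeks and 0.60, adjusted p = 0.0184, between the times).

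Mmp19 (ENSMUSG00000025355, chr10:128790910-128800824), a secreted enzyme that acts on basement membrane proteins, was the member that fell. It stood at 103.5, 118.7, 106.6, 129.6 and 105.3 CPM on chow, ran from 82.7 through 98.5 to 134.8 CPM at 8 weeks and from 64.8 through 70.3 to 84.8 CPM at 16 weeks. All 16-week livers lay below all chow livers, and the 8-week livers overlapped with both. The log2 change was -0.16 (SE 0.11, adjusted p = 0.233) at 8 weeks, -0.65 (SE 0.11, adjusted p = 3.46e-05) at 16 weeks and -0.50 (SE 0.10, adjusted p = 0.0015) between the times. Without 8-week replicate 3, the highest of its group, the change at 8 weeks was called (-0.24, adjusted p = 0.0217). Scaling by total counts alone ended the calls (-0.12, adjusted p = 0.365, at 16 weeks and -0.07, adjusted p = 0.591, between the times). That scaling moved the median of all genes at 16 weeks by 0.53, and relative to the median Mmp19 stood at -0.68 under either scaling. Tmem198b overlaps Mmp19 on the opposite strand at 5.09 to 10.2 CPM, and the strand setting of the counting is not given in the sources used here. Hepatocyte markers fell with it at 16 weeks, 6 of 8 (22.5% of all genes), and their summed level was 108500 to 151300 CPM on chow and 73510 to 105700 CPM at 16 weeks. Their part in the fall was not tested.

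Mmp23 (ENSMUSG00000029061, chr4:155650655-155653384, minus strand) encodes an unusual membrane-anchored member without the hemopexin domain of most others. It stood at 0.919, 1.09, 1.89, 0.724 and 1.59 CPM on chow, ran from 2.74 through 5.69 to 46.9 CPM at 8 weeks and from 7.46 through 8.42 to 10.8 CPM at 16 weeks. Both diet groups lay above chow, and the highest value was again that of 8-week replicate 3, with the next liver at 9.08 CPM. The log2 change was 3.09 (SE 0.60, adjusted p = 0.000264) at 8 weeks and 2.81 (SE 0.59, adjusted p = 0.000395) at 16 weeks. Without replicate 3 the 8-week change was 2.16 (adjusted p = 1.8e-06). The difference between the times then turned from -0.28 (adjusted p = 0.687) to 0.65 (adjusted p = 0.0299).

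**Figure D2:**
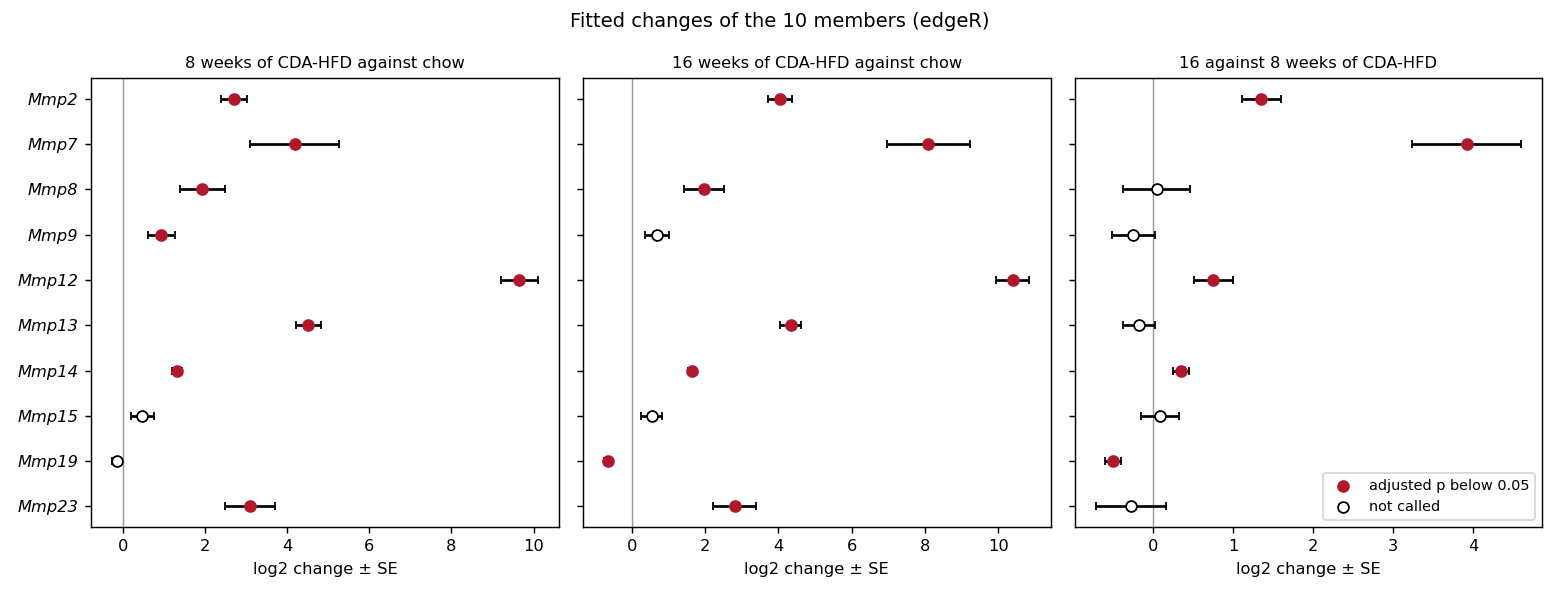
Log2 change of each member, with its standard error as bars, for 8 weeks against chow, 16 weeks against chow and 16 against 8 weeks. Mmp12 stands at 9.65 and 10.39 against chow, Mmp7 has the largest step between the times at 3.92, and Mmp19 is the member below 0 at 16 weeks.

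Levels of different genes were compared per kilobase of merged exons. On chow Mmp19 led the family at 31.9 ± 3.16 CPM per kb (SD, n = 5), followed by Mmp15 at 11.8 ± 2.29, Mmp14 at 5.89 ± 0.487 and Mmp2 at 1.33 ± 0.259, and each of these 4 stood clear of the next without overlap. From Mmp9 downward, neighbours overlapped. Mmp19 made up 59.8% ± 2.74 of the summed family level on chow, and Mmp15 21.9% ± 2.41. At 8 weeks Mmp12 stood first at 40.3 ± 16.8 CPM per kb (SD, n = 8), with Mmp19 at 28.6 ± 4.59, Mmp15 at 16.2 ± 9.70, Mmp14 at 14.5 ± 2.12 and Mmp2 at 8.63 ± 3.76, and every neighbour in that order overlapped. Without replicate 3 the order of Mmp15 and Mmp14 turned (12.9 ± 2.79 and 14.2 ± 1.95 CPM per kb, SD, n = 7).

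At 16 weeks Mmp12 stood at 67.7 ± 14.7 CPM per kb, above all livers of the next gene. Mmp2 (21.9 ± 6.55), Mmp7 (21.3 ± 12.2), Mmp19 (20.3 ± 1.75), Mmp14 (18.4 ± 1.99) and Mmp15 (17.2 ± 3.63) followed, and each overlapped with the next of these. The share of Mmp12 in the family's summed level was 33.1% ± 10.8 at 8 weeks and 37.8% ± 3.06 at 16 weeks. The share of Mmp19 was 25.1% ± 7.76 and 11.8% ± 2.51. Mmp7, ranked below Mmp13 at 8 weeks, reached 11.4% ± 5.70 at 16 weeks. The summed level of the 23 genes was 53.38 ± 4.997 CPM per kb on chow, 120.7 ± 29.9 at 8 weeks and 177.9 ± 29.1 at 16 weeks. Its ranges were 46.6 to 58.6, 72.6 to 170.1 and 132.8 to 218.7 CPM per kb, so chow did not overlap with either diet group.

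**Figure D3:**
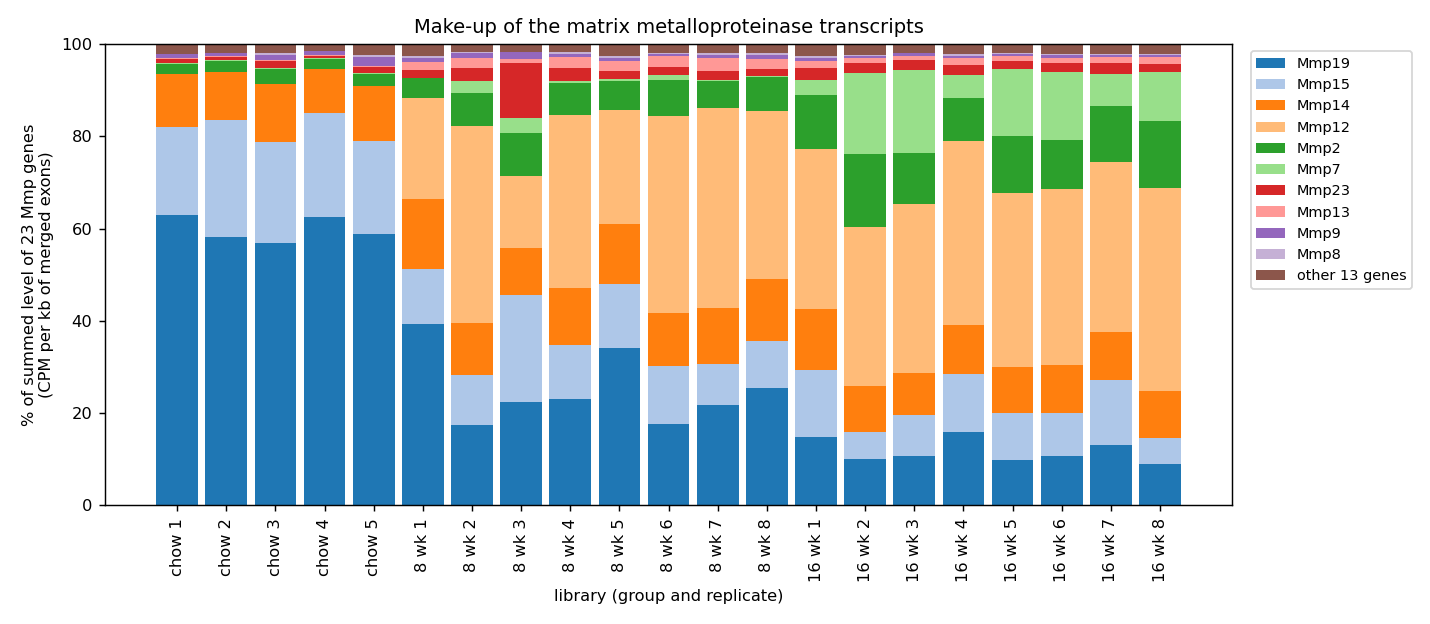
Share of each gene in the summed CPM per kb of the 23 family genes, in percent, with 1 stacked bar a liver. Mmp19 and Mmp15 fill most of each chow bar, while Mmp12 takes 33.1% on average at 8 weeks and 37.8% at 16 weeks.

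Along chromosome 9 the changes were uneven between neighbours. Mmp12, 71.9 kb beyond the start of Mmp13, rose by 9.65 at 8 weeks on the log2 scale, beside 4.51 for Mmp13. Mmp1b and Mmp1a, which lie next in the row with Mmp3 between them, had 0 counts in all 21 libraries. Mmp3 itself, a stromelysin, rose at 16 weeks by 1.48 (SE 0.40, adjusted p = 0.00402), and Mmp27, next to Mmp8, rose by 1.58 at 8 weeks and by 1.73 at 16 weeks. Mmp10 was not tested for lack of counts: it had 0 counts on chow, 5 at 8 weeks and 73 at 16 weeks, at least 12.99-fold higher than chow at 16 weeks against a floor of 3 counts over the group. Mmp20 had 1, 1 and 4 counts. Mmp7, at the far end of the cluster 419.6 kb from the first start, rose by 8.09 at 16 weeks. Floors cover counting error only.

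**Figure D4:**
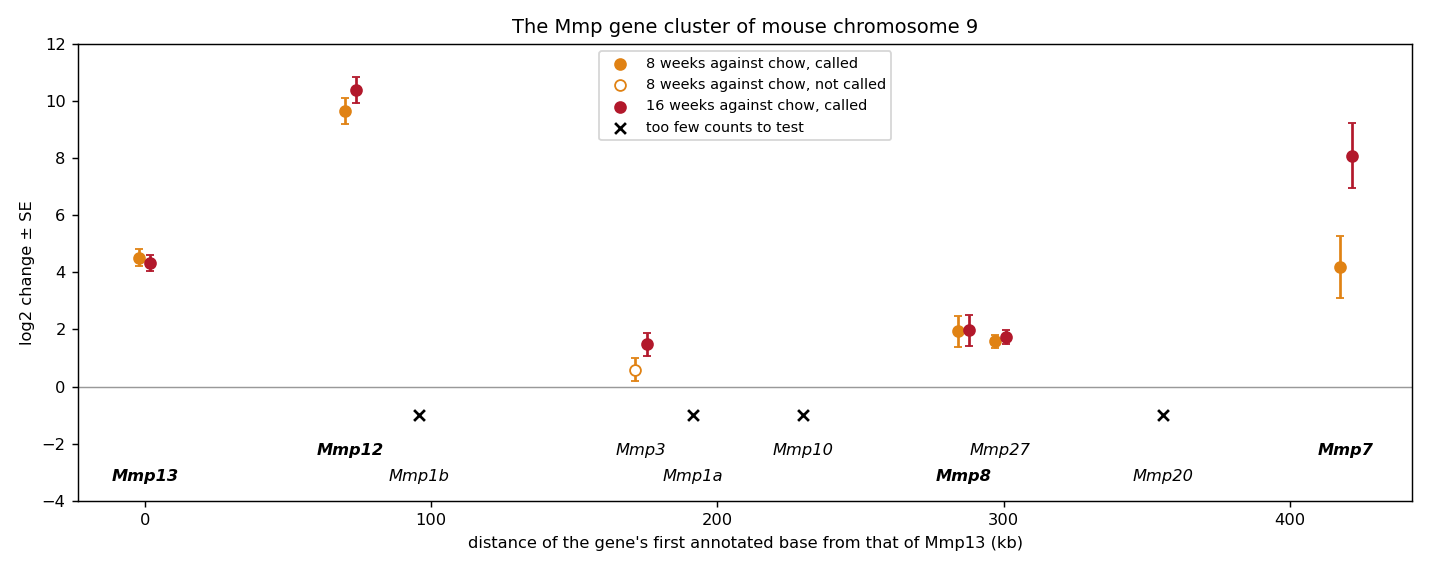
Log2 change against chow of the tested family genes in the chromosome 9 cluster, by distance in kb from the first base of Mmp13. Mmp12 is highest at both times, Mmp7 at the far end is 4.18 at 8 weeks and 8.09 at 16 weeks, and Mmp8 in between is 1.93 and 1.97.

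Of the 13 other family genes, 7 were tested. In them 5 rose and 0 fell at 8 weeks, and all 7 rose at 16 weeks, with medians of 1.02 and 1.73. Of all genes tested, 30.8% and 29.4% were called higher at these times. The largest changes were in Mmp24, a membrane-type enzyme (3.01, adjusted p = 0.000609, and 3.58, adjusted p = 6.74e-05), and Mmp25, a leukocyte membrane-type enzyme (1.67, adjusted p = 0.00755, and 2.62, adjusted p = 0.000105), although both stayed near 1 CPM or lower on average (1.07 CPM for Mmp24 and 0.648 CPM for Mmp25 at 16 weeks). Mmp11, a stromal enzyme, rose by 1.28 (SE 0.19, adjusted p = 0.000115) from 8 to 16 weeks, and its livers did not overlap between these times.

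The inhibitors were called in both directions, as were genes at large. Of 7 listed, 6 were tested: 2 rose and 1 fell at 8 weeks, and 3 rose and 1 fell at 16 weeks. Of all genes tested, 51.3% and 51.9% were called at these times (30.8% and 29.4% higher, 20.5% and 22.5% lower). Timp1, the inducible inhibitor, rose by 7.18 (SE 0.89, adjusted p = 1.75e-06) and 6.25 (SE 0.86, adjusted p = 3.56e-06) on the log2 scale. Its 8-week mean was 30.5 CPM with replicate 3, which stood at 138.5 CPM, and 15.1 CPM without it, beside 15.9 CPM at 16 weeks. Leaving that library out gave a change of 6.17 (adjusted p = 1.13e-08) at 8 weeks and moved the difference between the times from -0.93 (adjusted p = 0.196) to 0.09 (adjusted p = 0.857). Timp2, which also takes part in the activation of Mmp2, rose by 2.07 (adjusted p = 0.000156) and 2.85 (adjusted p = 3.8e-06), and between the times by 1.26 (adjusted p = 0.000108) without that library, beside 0.78 (adjusted p = 0.0707) with it. Timp3, which binds to the matrix, was at -0.29 (adjusted p = 0.445) at 8 weeks, rose by 1.09 (adjusted p = 0.00799) at 16 weeks and rose by 1.37 (adjusted p = 0.00206) between the times. Pzp, a protease-trapping plasma protein made by hepatocytes, fell by 0.57 (adjusted p = 0.0189) and 1.06 (adjusted p = 9.64e-05). Under scaling by total counts alone, 0 inhibitors were called lower at 8 weeks and 1 at 16 weeks. Of all genes called under that scaling, 78.3% and 89.5% were higher, beside 60.1% and 56.6% with TMM scaling.

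Genes that activate the precursors also split by kind. Of 10, 5 rose and 3 fell at 8 weeks, and 5 rose and 5 fell at 16 weeks. Of all genes tested, 30.8% rose and 20.5% fell at 8 weeks, and 29.4% rose and 22.5% fell at 16 weeks. Genes of the plasminogen activator system rose: Plaur, the urokinase receptor, by 3.36 (adjusted p = 1.31e-07) and 3.76 (adjusted p = 1.83e-08), Plau, urokinase, by 2.84 (adjusted p = 2.74e-06) and 3.57 (adjusted p = 1.15e-07), and Plat, tissue plasminogen activator, by 2.80 (adjusted p = 4.75e-05) and 4.61 (adjusted p = 1.44e-07). Serpinb2, an inhibitor of urokinase, rose as well, by 3.26 (adjusted p = 0.0149) at 8 weeks. Plg, the plasminogen that they cleave, fell by 0.84 (adjusted p = 0.00089) at 16 weeks. The convertases Pcsk5, Pcsk6 and Pcsk7 fell at both times, with Pcsk6 at -0.97 and -1.16, and Furin, which cleaves membrane-type precursors, fell by 0.52 (adjusted p = 0.0212) at 16 weeks. Those that fell were named after their values were seen. Under scaling by total counts alone, 1 gene of this list was called lower at each time. That scaling moved calls of all genes the same way: 78.3% and 89.5% of those called were higher, beside 60.1% and 56.6% with TMM.

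Of 10 matrix substrates, 7 rose and 1 fell at 8 weeks and 8 rose and 1 fell at 16 weeks, with medians of 1.80 and 2.50. Of all genes tested, 30.8% and 29.4% were called higher and 20.5% and 22.5% lower. Col1a1, the main chain of fibrillar collagen, rose by 3.97 (SE 0.30, adjusted p = 4.47e-09) and 4.24 (SE 0.30, adjusted p = 9.38e-10). Col1a2, the other chain of type I collagen, rose by 3.15 (adjusted p = 5.56e-09) and 3.62 (adjusted p = 6.78e-10). Col3a1, type III collagen, rose by 2.89 (adjusted p = 3.02e-08) and 3.45 (adjusted p = 2.06e-09). Eln, elastin, a substrate of Mmp12, rose by 2.38 (adjusted p = 5e-07) and 3.61 (adjusted p = 2.62e-09), and by 1.23 (adjusted p = 0.00056) between the times. Fn1, fibronectin, which hepatocytes release into plasma, fell by 0.85 (adjusted p = 0.0204) and 1.12 (adjusted p = 0.00272), and was named after its values were seen. Under scaling by total counts alone, 0 substrates were called lower at either time, so the call of Fn1 was lost. Among all genes called under that scaling, 78.3% and 89.5% were higher (60.1% and 56.6% with TMM scaling). Without 8-week replicate 3, 8 substrates rose and 1 fell at either time, while 57.2% and 66.4% of all genes were called.

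Within each diet group of 8 livers, the 10 members were set against the mean log2 CPM of 4 marker lists, which made 80 relations (exact two-sided permutation tests, smallest possible p = 4.96e-05). By Spearman's rho 4 passed after Benjamini-Hochberg adjustment over the 80, and by Pearson's r 12 did, with 3 passing by both. Mmp7 and the biliary markers at 8 weeks gave r = 0.97 (exact p = 4.96e-05) and rho = 0.98 (exact p = 0.000397, adjusted p = 0.0159), and r = 0.90 without the 2 livers farthest from the median of the markers. Mmp15 and the biliary markers at 8 weeks gave r = 0.83 (exact p = 0.000918) and rho = 0.98 (exact p = 0.000397, adjusted p = 0.0159), and r = 0.95 without the 2 farthest. Without 8-week replicate 3 both kept rho = 0.96. Both members also went with other lists at 8 weeks. With the macrophage markers rho was 0.90 for Mmp7 and 0.83 for Mmp15 (exact permutation, adjusted p = 0.0527 and 0.0724). With the stellate markers rho was 0.81 for each (exact permutation, adjusted p = 0.083).

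At 16 weeks the pairs of Mmp7 and Mmp15 with the biliary markers went different ways. Mmp7 and the biliary markers had r = 0.92 and rho = 0.88 (exact permutation, adjusted p = 0.0527), whereas Mmp15 and these markers had rho = -0.69 (exact permutation, adjusted p = 0.185). Replicates 1, 4 and 7, which held squamous and muscle markers, were lowest in summed biliary markers (97.45, 95.12 and 112.3 CPM). For Mmp15 they stood at 103.4, 103.4 and 117.1 CPM. Without replicates 1 and 4, r was 0.87 for Mmp7 and -0.82 for Mmp15. The part of other tissues in these relations was not tested. Mmp15 and the macrophage markers had rho = -0.90 (adjusted p = 0.0527, exact permutation) at 16 weeks. The difference between the times was not tested for any relation. Mmp9 and the neutrophil markers gave r = 0.86 (exact p = 0.00707) and rho = 0.93 (exact p = 0.00223, adjusted p = 0.0446) at 16 weeks, and rho = 0.88 (adjusted p = 0.0527, exact permutation) at 8 weeks. For Mmp8 and the same markers rho was 0.14 and 0.21.

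Mmp23 and the macrophage markers at 8 weeks had rho = 0.95 (exact p = 0.00114, adjusted p = 0.0304) but r = 0.65 (exact p = 0.0835). The r was 0.92 without replicate 3 and 0.56 without the 2 livers farthest from the median, and by r it did not pass with all 8 livers. For Mmp12 and the macrophage markers r was 0.99 and rho 0.83 (exact permutation, adjusted p = 0.0724) at 16 weeks, and r was 0.83 and rho 0.69 (exact permutation, adjusted p = 0.185) at 8 weeks. Without the 2 livers farthest from the median of the markers, r was 0.94 at 16 weeks and -0.02 at 8 weeks (replicates 1 and 5 left out). Without 8-week replicate 3, the 8-week values were r = 0.98 and rho = 0.93, so they depended on the livers kept. Members and markers come from the same libraries and share their scaling.

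**Figure D5:**
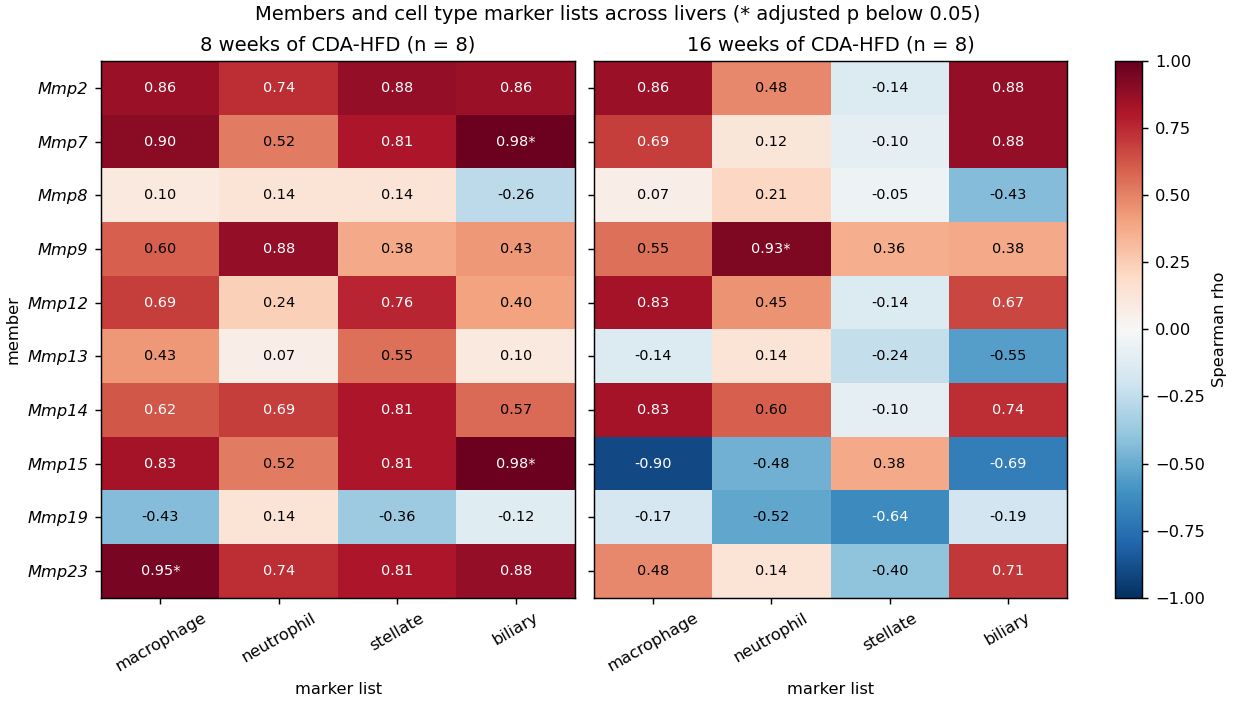
Spearman's rho between the log2 CPM of each member and the mean log2 CPM of each marker list, over the 8 livers of each diet group, with stars at an adjusted p under 0.05. At 8 weeks Mmp7 and Mmp15 both stand at 0.98 with the biliary markers, and at 16 weeks Mmp15 stands at -0.69.

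The members also differed in how they varied with one another, given here as a description over 8 livers a group that share their scaling. Mmp2 and Mmp14 had rho = 0.88 at 8 weeks and 0.90 at 16 weeks. Mmp7 and Mmp15 had 0.95 at 8 weeks and -0.55 at 16 weeks, Mmp2 and Mmp15 had 0.88 and -0.67, and Mmp12 and Mmp13 had 0.90 and -0.24.

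Over all 21 livers, the genes with the pattern most like each member were ranked by Spearman's rho of CPM among 12468 genes. These values include the differences between the groups. Nearest to Mmp2 were the collagen VI chains Col6a1 and Col6a2 (both 0.99) and Gpr153 (0.99), and the collagen VI chains (both 0.99) with Ltbp2 (0.99), a matrix protein of microfibrils, were nearest to Mmp14. Mmp12 lay nearest to the myeloid lectin receptors Clec7a (0.99) and Clec5a (0.98) and to Pqlc3 (0.98). Mmp9 lay nearest to S100a9 (0.85) and S100a8 (0.84), which are abundant neutrophil proteins and stand in the neutrophil list, and to Cyb561 (0.79).

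For Mmp7 the nearest genes were Dpt (0.98), a matrix protein of fibroblasts, Pik3ip1 (0.97) and Ankrd1 (0.97), and none of them is a marker in the biliary list. Mmp8 was nearest to its cluster neighbour Mmp13 (0.93), to Slc7a11 (0.91), the cystine transporter, and to Msr1 (0.91), the macrophage scavenger receptor. Among the genes closest to Mmp13 were Gbp3 (0.88) and Clec4a3 (0.88). Mmp23 was nearest to Npdc1 (0.97), Efemp2 (0.96), which takes part in elastic fibre assembly, and Oas1c (0.96). Mmp15 was nearest to Parp16 (0.86), Endod1 (0.84) and Lrrc14b (0.79), and Mmp19 to Nsmf (0.95), Ap2a2 (0.94) and Tspan33 (0.94).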

How the data were processed

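RNA counts from 21 mouse livers were used. The deposited values were raw counts for each Ensembl ID (GRCm38, per the submitters' processing notes) from TruSeq stranded libraries, per the labels' protocols. Neither aligner, annotation release nor counting program is given in the sources used. The per-sample counts equalled the series table in 21 of 21 samples. Symbols and exon lengths came from GENCODE M21 (52489 of 52636 IDs matched), promoters from RefSeq GRCm38.p6.

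Counts were fitted in R 4.3.3 with edgeR 4.0.16 (filterByExpr by group, TMM, glmQLFit, glmQLFTest, all 21 libraries in 1 fit of 3 groups), with DESeq2 1.42.0 as an alternative. The 17104 genes tested held 99.96% of the counts. The standard error is the log2 change divided by the root of F. CPM is a level, and log2 changes come from the fit. Relations were tested in Python 3.11.15 with scipy 1.17.1. The scripts were tested on simulated data. The 30 alternatives per comparison were DESeq2 size factors, total counts alone, other filters on low counts, the DESeq2 Wald test, removal of the 20 most abundant genes, a fit restricted to the groups compared, each library left out, and 2 sets of libraries with transcripts of other tissues left out. Replicate numbers follow the listing order.

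The members and lists were chosen with earlier results of these data known. All members are named, with up to 3 called genes per list, of largest change against chow at either time, and the 3 genes most alike per member, for which a mean of 1 CPM was required. Of the genes this rule names, 1 is not reported here. The ratios to marker sums were chosen after earlier results were seen.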

Additional observations from a re-analysis of the deposited data

Results flagged for a closer look

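In 4 of 30 sets of livers (10 members in 3 groups), 1 liver stood far from the others by the gap to its nearest neighbour, where chance gives about 1 in 20. Replicate 3 of the 8-week group was such a liver for Mmp9 (9.60 CPM), Mmp15 (212.4 CPM) and Mmp23 (46.9 CPM). Replicate 8 of the 16-week group was such a liver for Mmp13 (9.04 CPM, with the next at 5.81 CPM).

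The change against chow differed between 16 and 8 weeks for 5 members, by the test of 16 against 8 weeks. These are the same calls as given above, and 21.6% of all genes were called in that test. On the log2 scale the difference was 1.35 for Mmp2, 3.92 for Mmp7, 0.75 for Mmp12, 0.34 for Mmp14 and -0.50 for Mmp19. The call for Mmp12 was lost in several alternatives, as given with its values above.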

How the results depend on the processing

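Over 30 alternatives per comparison, the number of members called was 7 to 9 at 8 weeks (8 with all livers), 7 to 10 at 16 weeks (8) and 4 to 7 between the times (5). The share of all genes called ran from 27.8% to 57.4%, 30.9% to 70.6% and 9.34% to 33.6%, lowest with no filter on low counts. Of 897 values of single members under an alternative, 856 kept direction and side of the threshold, 14 passed it newly, 13 no longer passed and 14 turned sign. A filter at a mean of 1 CPM removed Mmp8, which then has no value. All sign turns were in the comparison of 16 with 8 weeks.

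Leaving out 1 library at a time gave -0.10 to 0.15 for Mmp8, -0.34 to 0.07 for Mmp9, -0.01 to 0.41 for Mmp15 and -0.42 to 0.65 for Mmp23. Mmp8 was at -0.05 without 8-week replicate 1, -0.07 without 3, -0.02 without 5 and -0.10 without 16-week replicate 8. Without 8-week replicates 3, 4 and 5 together, Mmp8 was at -0.21 and Mmp23 at 0.67. Without 8-week replicates 3 and 6 and 16-week replicates 1, 4 and 7 together, Mmp9 was at 0.11 and Mmp23 at 0.71. Scaling by total counts alone gave 0.28 for Mmp9, 0.15 for Mmp13 and 0.46 for Mmp23. The cause was not tested.

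That scaling moved the median of all genes by 0.12, 0.53 and 0.38 in the 3 comparisons, and the share of called genes that were higher from 60.1%, 56.6% and 49.0% to 78.3%, 89.5% and 94.8%. Under it 14 relations with marker lists passed in place of 4; without 8-week replicate 3, 5 passed. No paired analysis was possible because the labels give no replicate numbers that the groups share.

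Depth limits Mmp7, Mmp8, Mmp12 and Mmp13 on chow (13, 39, 59 and 46 pooled counts).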
